A study of Mus musculus with 2 samples.

Results

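The genes described here are 10 regulators of the passage from G1 into S phase: the D cyclins Ccnd1, Ccnd2 and Ccnd3, the E cyclins Ccne1 and Ccne2, the kinases Cdk2 and Cdk4, the kinase inhibitor Cdkn1b, the phosphatase Cdc25a and the transcription factor E2f1. They were chosen by symbol, and their protein-coding transcripts were taken from the GENCODE M21 annotation. The 10 genes, of 21587 protein-coding genes in the table, held 40 of 49490 protein-coding transcripts. D cyclins pair with Cdk4 and E cyclins with Cdk2, and these kinases phosphorylate the retinoblastoma family of proteins and so free E2F factors, which turn on genes for DNA synthesis. Cdkn1b, also called p27, binds and inhibits these kinase complexes, and Cdc25a removes phosphates that hold Cdk2 inactive. Mouse embryonic stem cells are known for a short G1 phase.

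The cells were wild-type DTCM23/49 XY mouse embryonic stem cells, a single line that was depleted of feeder cells and grown on gelatin in serum with leukemia inhibitory factor. For 10 min they were given 200 µM 4-thiouridine (4sU), a nucleoside that enters RNA in place of uridine while it is being made. The RNA with 4sU in it was biotinylated and pulled down, and the labeled RNA and the unlabeled RNA left behind were sequenced as 1 library each, both of replicate 1 and both from cells given 4sU. The labels also call the second library total RNA, and miRNA-depleted cells and other replicates were not analysed here.

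With 1 library per pool there are no replicates, no difference has a replicate check, and neighbours in any order of levels cannot be judged against a spread. Read depth is unknown, so counting error cannot be given. Values are in the deposited unit, a per-length abundance called TPM whose columns sum to 10 times a TPM column, and each is relative to its own library. All 10 pluripotency markers examined were present, with exon values of 87.4 to 4574 in labeled and 72.9 to 6580 in unlabeled RNA, and the highest was Tdgf1. The 6 fibroblast markers, which would mark feeder cells, summed to 8.72 in labeled and 20.9 in unlabeled RNA, with Col3a1 and Postn at 0 in both. Of 6 markers of differentiated lineages, Foxa2, Gata6 and Sox17 were at 0 in both libraries, and T and Sox1 did not exceed 1.56. Pax6, a neural regulator, was the exception at 68.7 in labeled and 70.5 in unlabeled RNA. In bulk RNA, fewer cells expressing a gene and less RNA per cell cannot be told apart.

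Promoter sequence is shown for the members whose start sites or E2F motifs are described below. The RefSeq promoter table on GRCm38.p6 held 8 windows for 7 of the 10 genes, and none was found for Ccnd1, Ccnd2 and Ccne2. Each sequence is the 250 bases before an annotated start site, on the strand of the gene. Ccnd3 has start sites far apart. Its upstream window is chr17:47504801-47505050 (plus strand) and its downstream window is chr17:47593217-47593466 (plus strand). Both are shown because transcripts from the upstream site and those that begin downstream differed in their intron values. The downstream transcripts begin between chr17:47593470 and chr17:47597164, so not all of them begin at the downstream window. The GC content of the upstream and downstream windows was 59.6% and 64.8%. Cdc25a (chr9:109875329-109875578, plus strand) and Cdk2 (chr10:128705052-128705301, minus strand) are shown because each holds an E2F motif, in capitals.
Ccnd3 upstream: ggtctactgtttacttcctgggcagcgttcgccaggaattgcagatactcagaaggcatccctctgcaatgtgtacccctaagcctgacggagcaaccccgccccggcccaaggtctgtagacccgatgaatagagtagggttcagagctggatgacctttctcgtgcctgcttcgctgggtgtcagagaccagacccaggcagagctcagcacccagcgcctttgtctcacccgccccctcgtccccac
Ccnd3 downstream: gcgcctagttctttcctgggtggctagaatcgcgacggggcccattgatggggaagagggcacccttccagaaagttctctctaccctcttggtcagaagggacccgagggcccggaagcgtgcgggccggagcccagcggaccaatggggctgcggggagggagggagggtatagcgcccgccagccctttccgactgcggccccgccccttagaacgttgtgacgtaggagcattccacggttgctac
Cdc25a: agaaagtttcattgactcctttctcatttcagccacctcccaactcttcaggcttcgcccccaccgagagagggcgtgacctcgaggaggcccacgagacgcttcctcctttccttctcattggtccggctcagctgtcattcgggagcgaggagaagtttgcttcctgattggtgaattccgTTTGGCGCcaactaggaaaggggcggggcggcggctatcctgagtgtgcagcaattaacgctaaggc
Cdk2: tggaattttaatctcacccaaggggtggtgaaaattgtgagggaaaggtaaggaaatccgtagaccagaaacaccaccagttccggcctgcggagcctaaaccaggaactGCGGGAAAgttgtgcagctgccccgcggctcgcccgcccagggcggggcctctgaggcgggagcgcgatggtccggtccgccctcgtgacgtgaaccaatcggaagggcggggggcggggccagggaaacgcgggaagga
The motifs searched on both strands were TTTCCCGC, TTTCGCGC, TTTGCCGC and TTTGGCGC, in the 250 bases of each window that lie before the start. The 50 bases after the start were not searched. Cdc25a held TTTGGCGC 67 bases before its start, and Cdk2 held TTTCCCGC on the opposite strand, read as GCGGGAAA, 140 bases before its start. At least 1 of the motifs was in 2 of 8 member windows, or 25%, and in 1.86% of all 32817 windows in the table. The E2f1 window, chr2:154569427-154569676 (minus strand), lies inside both coding transcripts of E2f1. These begin at chr2:154569720 and chr2:154569892, and the bases before those starts were in no E2f1 window. A match is a description of the letters only, and binding was not measured.

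The first question was how abundant each transcript was in new and in preexisting RNA. Exon values were summed over the protein-coding transcripts of a gene, and since isoforms share reads and genes differ in the number of isoform rows, the highest single transcript is given too where levels are ordered. In unlabeled RNA the gene sums ran from Ccnd3 at 727 and Cdk4 at 598 through Cdc25a at 267, Ccnd1 at 211, Ccne1 at 209, Cdk2 at 180, Ccnd2 at 140, Ccne2 at 81.1 and Cdkn1b at 69.4 to E2f1 at 23.6. In labeled RNA Cdk4 was highest at 700, and E2f1 and Cdkn1b were lowest at 33.4 and 31.2. The order differs by the highest transcript in each library. In unlabeled RNA it was 211 for Ccnd1, 179 for Cdk4, 122 for Ccne1, 113 for Cdc25a, 94.3 for Cdk2 and 94.2 for Ccnd3, so the first place of Ccnd3 depends on its 16 coding transcripts. In labeled RNA Cdk4 was again highest at 209, and Ccnd2 was lowest at 13.1, under E2f1 at 18.5 and Cdkn1b at 19.9.

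**Figure D1:**
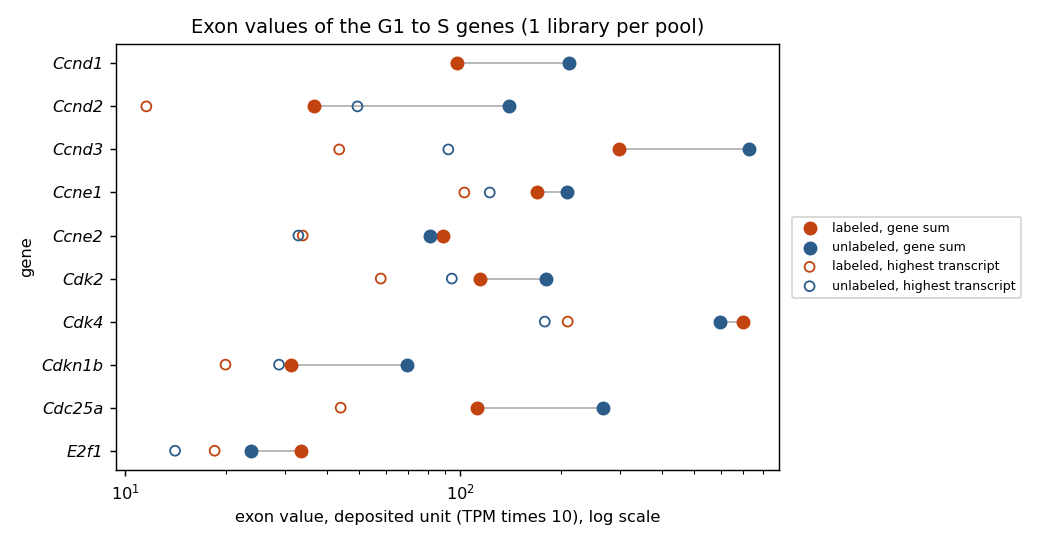
Exon values of the 10 genes in the deposited unit (TPM times 10) on a log axis, in labeled and unlabeled RNA, with 1 library per pool. Filled points are sums over coding transcripts and open points the transcript with the highest mean. Open points of Ccnd1, which has 1 coding transcript, lie under the filled ones. Labeled values lie below unlabeled values in 7 genes and above them in Ccne2, Cdk4 and E2f1.

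Among the D cyclins, which link growth signals to the cell cycle, every member was lower in labeled than in unlabeled RNA. The labeled to unlabeled exon ratio is given relative to its median over 14127 protein-coding genes, 0.837, and called relative enrichment. Ccnd2 (chr6:127125162-127152193) had 36.7 in labeled and 140 in unlabeled RNA, a relative enrichment of 0.313, which lay at percentile 3.79 of all genes. Ccnd3 (chr17:47505051-47599691) had 297 and 727, a relative enrichment of 0.488. For Ccnd1 (chr7:144929931-144939925) the values were 97.5 and 211, a relative enrichment of 0.551. Thus the D cyclins all lay under percentile 20.

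The E cyclins lay closer to the typical gene. Ccne1 (chr7:38097984-38107534) had 169 in labeled and 209 in unlabeled RNA, a relative enrichment of 0.967. Ccne2 (chr4:11191351-11204779) had 88.8 and 81.1, a relative enrichment of 1.31. These cyclins bind the same kinase, Cdk2 (chr10:128697939-128705031), which had 114 and 180 and a relative enrichment of 0.758. Cdk4 (chr10:127063534-127067920), the partner of the D cyclins, had 700 and 598, and its relative enrichment of 1.40 was above that of all its cyclins.

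Of the regulators, Cdc25a (chr9:109875579-109893895) had 112 in labeled and 267 in unlabeled RNA, a relative enrichment of 0.502. Cdkn1b (chr6:134920401-134925513) had 31.2 and 69.4, a relative enrichment of 0.538. By its most highly expressed transcript alone, Cdkn1b-202, the relative enrichment of Cdkn1b was 0.855. E2f1 (chr2:154559407-154569892), itself an activator of S-phase genes, had 33.4 and 23.6, and its relative enrichment of 1.69 was the highest of the members, at percentile 73.1.

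Counted together, 7 of the 10 genes lay below and 3 above the median gene, although Ccne1 moved above it, to 1.07, with a minimum mean exon value of 10 and to 1.04 by the most highly expressed transcript alone, and their median relative enrichment was 0.655 (quartiles 0.511 and 1.22). By a fold of 2 from the median, 0 of 10 genes were higher, where 21.9% of all genes were, and 2 of 10, Ccnd2 and Ccnd3, were lower, where 14.8% of all genes were. The latter share is near that of all genes, and Cdc25a at 0.502 stood just outside the limit and Ccnd3 at 0.488 just inside it. The plot of relative enrichment shows these positions. The members were more abundant than most genes, with a median mean exon value of 151 against 38.1 over all genes. With a minimum mean exon value of 10, 18.0% of all genes were 2-fold or more above, and the median of the members was 0.724. The part of abundance in these positions was not tested.

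**Figure D2:**
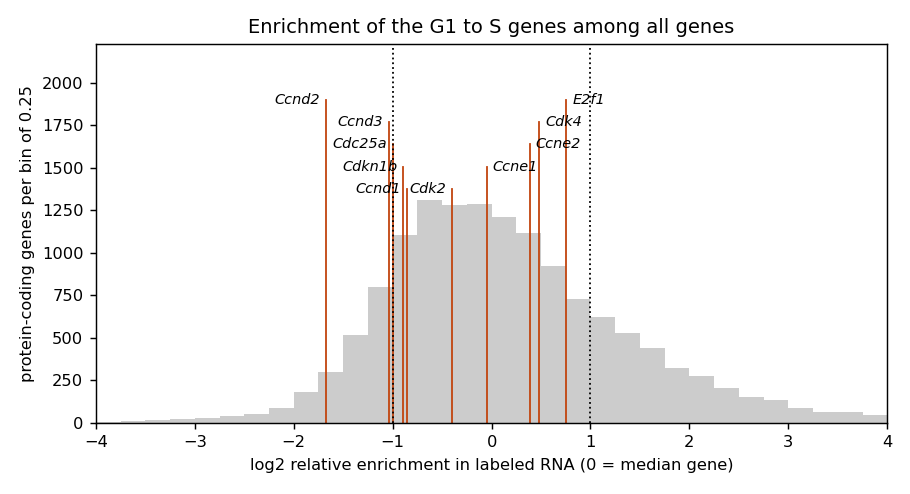
Histogram of log2 relative enrichment over 14127 protein-coding genes, in bins of 0.25, with the 10 G1 to S genes as orange lines whose heights only separate the labels. Dotted lines mark a fold of 2 from the median. Ccnd2 at -1.67 lies lowest and E2f1 at 0.75 highest of the 10 genes.

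Introns answer a different question, since they report on RNA not yet spliced. The labeled to unlabeled ratio of the intron values, summed over the coding transcripts of each gene, was above the exon ratio in all 10 genes, as in 11852 of 13031 genes with both values. This ratio was added to the work after values had been seen. Ccnd2 had intron values of 35.6 in labeled and 2.01 in unlabeled RNA, a ratio of 17.7 at percentile 98.3, while Ccnd1 had 16.2 and 1.22, a ratio of 13.3 at percentile 97.2. Both D cyclins therefore combined low exon ratios with high intron ratios, although their unlabeled intron values were small. A pseudocount of 1 lowered the ratios to 12.2 and 7.74, at percentiles 99.2 and 97.0.

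The E cyclins also had intron ratios above the median gene at 3.90. Ccne2 had 106 in labeled and 12.7 in unlabeled introns, a ratio of 8.41, and Ccne1 had 73.0 and 13.5, a ratio of 5.40. Cdc25a and Ccnd3 followed at 5.01 and 4.52. The kinases and E2f1 were under the median, with 2.74 for E2f1, 2.01 for Cdk4 and 1.83 for Cdk2, and Cdkn1b was lowest at 0.797, at percentile 1.67. Much of the intron sequence of Cdk2 and Cdk4 is exon in other transcripts of the same gene, 81.3 to 81.9% for Cdk2 and 51.2 to 72.5% for Cdk4, against 0 to 5.44% for E2f1. In Cdkn1b the overlap was 79.4% for Cdkn1b-201, 81.6% for Cdkn1b-203 and 0% for Cdkn1b-202. The first 2 of these carried unlabeled intron values of 32.75 and 30.07 of the 62.82 of the gene. In labeled RNA they carried 24.95 and 22.18 of 50.05. Among the genes with the highest intron ratios, the overlap was 14.7% in Ccnd1 and 2.74 to 3.70% in Ccne2. In Ccnd2 it was 15.6% for Ccnd2-201, 58.1% for Ccnd2-206 and 100% for Ccnd2-204 and Ccnd2-202, which carried labeled intron values of 11.1 and 10.7 of the 35.6 of the gene. A further gene, 9330179D12Rik, has exons over 1.88 to 21.6% of the Ccnd2 intron bases. The part of either overlap in these ratios was not tested.

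**Figure D3:**
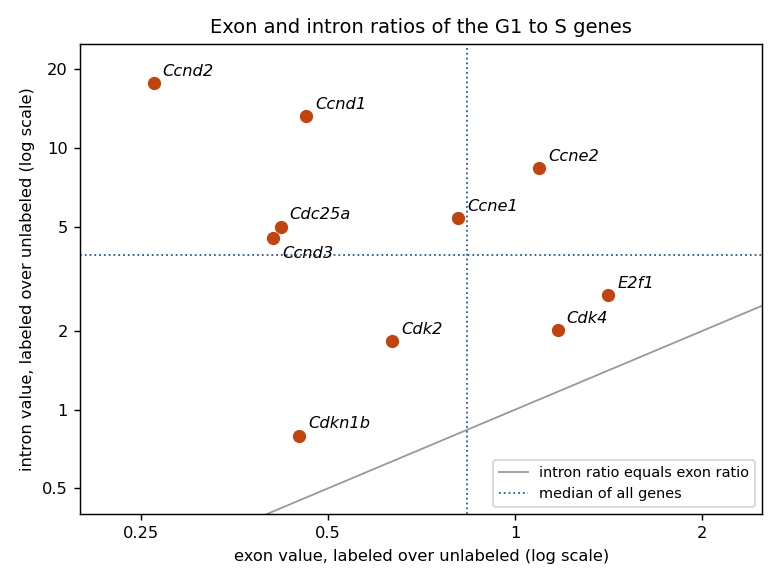
Labeled to unlabeled ratio of exon values (horizontal, log scale) and of intron values (vertical, log scale) for the 10 genes, 1 point per gene. The dotted lines are the medians over all genes, and every point lies above the grey line of equal ratios. Ccnd2 and Ccnd1 are at the upper left, at intron ratios of 17.7 and 13.3, and Cdkn1b is lowest at 0.797.

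Next, intron values were divided by exon values for every transcript in both libraries, since the model of the study rests on these ratios. Of the 40 transcripts, 37 had all values above 0 and a mean exon value above 1. The exceptions were Ccnd3-217 and Cdkn1b-202, whose unlabeled introns were at 0, and Ccnd3-220, whose unlabeled exons were at 0. Over the 37 transcripts the median ratio was 0.638 in labeled and 0.0822 in unlabeled RNA, where all 31386 such transcripts had 0.570 and 0.111.

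In labeled RNA, 12 of 37 transcripts had a ratio of at least 1, which is 32.4% (95% Wilson interval 19.6 to 48.5% over transcripts), near the 28.2% of all transcripts. The interval takes transcripts as independent, which the isoforms of 10 genes that share reads are not, so it is too narrow. These 12 comprised all 3 transcripts of Ccne2, 3 of 14 of Ccnd3, 2 of 4 of Ccnd2, 2 of 3 of Cdc25a and both measured ones of Cdkn1b. The transcripts of Ccnd1, Ccne1, Cdk2, Cdk4 and E2f1 were all under 1. From sums per gene, 3 of 10 genes, Ccne2, Cdkn1b and Cdc25a, were at or over 1, where 28.7% of all genes were. The lowest gene ratio was that of Ccnd1, at 0.166 in labeled and 0.00578 in unlabeled RNA, and the highest was that of Cdkn1b, at 1.60 and 0.905. A labeled ratio under 1 and no higher than the unlabeled one was found in 0 of 37, where 5.1% of all transcripts had it. An unlabeled ratio of 1 or more was found in 3 of 37, Cdkn1b-201, Cdkn1b-203 and Ccnd3-213, where 8.58% of all transcripts had one.

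**Figure D4:**
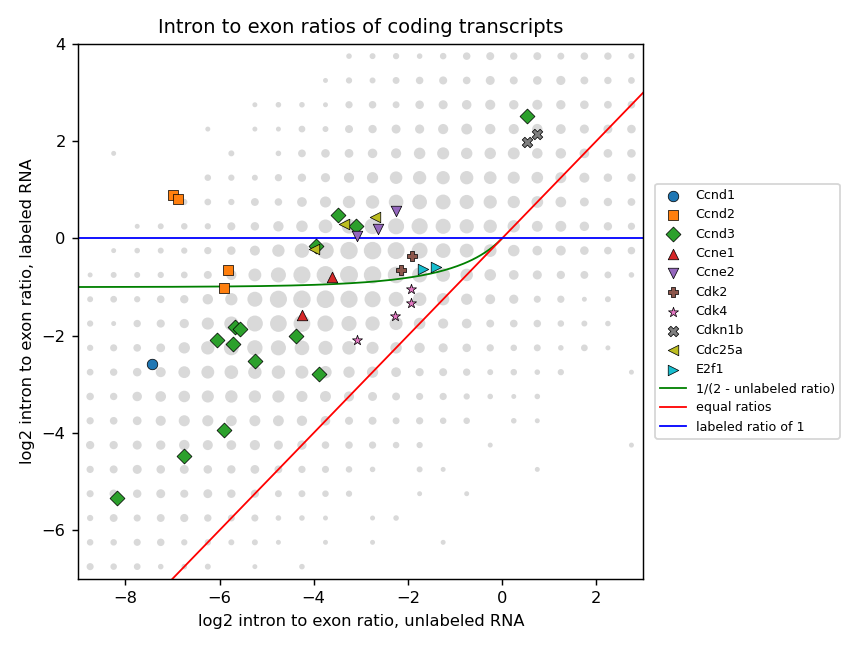
Intron to exon ratio in unlabeled (horizontal) and labeled RNA (vertical), both log2, for 37 transcripts of the 10 genes, over grey circles whose size grows with the number of all coding transcripts in a bin. Transcripts between the red line of equal ratios and the blue line of a labeled ratio of 1 have ratios the model allows. Of the 37 transcripts, 25 lie between the lines and 12 at or above the blue one.

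Ccnd3, with the most measured transcripts (14), had the widest range within a gene, from 0.0248 to 5.73 in labeled RNA. The 5.73 is that of Ccnd3-213, whose exon values were only 1.87 in labeled and 1.34 in unlabeled RNA. The next highest was 1.39, in Ccnd3-204. The transcripts of Ccnd3 divide by start site, a split chosen after the values were seen. Of the 16, 9 begin at or near the upstream site and contain an intron of 73442 bases, or 73422 in Ccnd3-218. The other 7 begin downstream and lack it. Among those with all values above 0, labeled intron values were 7.68 to 10.7 (median 9.58) in 8 upstream transcripts. In 6 downstream ones they were 0.72 to 2.66 (median 1.19). The upstream transcripts contain nearly the same long intron, so their values are not independent. No share over other genes was computed for such a split. Of these transcripts, 4 upstream and 2 downstream have both ends annotated as complete. Labeled exon values were 1.87 to 41.6 upstream and 2.89 to 43.5 downstream. In the most abundant forms, 4 upstream transcripts had labeled ratios of 0.223 to 0.283, and the downstream Ccnd3-205 and Ccnd3-208 had 0.0248 and 0.0452. Of the intron bases of the downstream transcripts, 71.2 to 100% lie in exons of other Ccnd3 transcripts, against 4.12 to 7.24% upstream, and isoforms share reads. Whether this overlap bears on the difference was not tested.

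Cdkn1b departed from the others in both libraries. Transcript Cdkn1b-201 had exon values of 6.32 in labeled and 22.6 in unlabeled RNA but intron values of 24.9 and 32.8, so that its ratios were 3.95 and 1.45. Cdkn1b-203 had ratios of 4.44 and 1.66. The most abundant form, Cdkn1b-202, had exon values of 19.9 and 28.8 with intron values of 2.92 and 0. The last intron of Cdkn1b-201, of 2159 bases at chr6:134922084-134924242, lies 100% within an exon of Cdkn1b-202, past the end of its coding sequence, and the 561-base intron at chr6:134921395-134921955 is common to all 3 transcripts. Thus most of the sequence counted as intron for Cdkn1b-201, 79.4% of its intron bases, is exon for the most abundant form.

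The study's model turns the ratios of a transcript into a processing and a degradation rate from this single time point, and it requires a labeled ratio under 1 and above the unlabeled ratio. Of the 37 transcripts, 25, or 67.6% (95% Wilson interval 51.5 to 80.4%), met this, against 66.7% of all. The equation had no exact solution in 16 of the 25, or 64.0%, where 57.2% of all compatible transcripts had none, and the nearest rates were then used. The median modelled degradation half-life was 17.5 min in the 25 transcripts and 19.0 min in all compatible ones, and the median processing half-time was 4.60 and 3.88 min. These are single values without error.

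For the highest measured transcript of each gene, the half-life was 4.46 min for E2f1, 10.2 min for Ccne1, 19.1 min for Cdk2, 20.7 min for Ccnd1, 24.0 min for Cdk4, 138 min for Ccnd3, 147 min for Ccnd2 and 238 min for Cdc25a. The values of E2f1, Cdk2, Ccnd2 and Cdc25a were exact solutions, and the others were nearest rates. For these the distance of fitted from observed ratios, in natural log units, was 0.412 in Ccne1, 0.735 in Ccnd1, 1.09 in Cdk4 and 2.84 in Ccnd3. Ccne2 has no half-life, since the labeled ratio was 1 or more in all its transcripts. Cdkn1b has none either, since Cdkn1b-201 and Cdkn1b-203 had labeled ratios over 1 and the most abundant Cdkn1b-202, with a labeled ratio of 0.147, had an unlabeled intron value of 0. Transcripts of nearly the same abundance gave very different values. The 4 upstream transcripts of Ccnd3 had half-lives of 11.3 to 17 min beside the 138 min of Ccnd3-205. All these Ccnd3 values are nearest rates, and Ccnd3-205 had the poorest fit, at a distance of 2.84 against 0.378 to 0.667. Ccnd2-206 had 47.1 min beside the 147 min of Ccnd2-201. For Cdc25a, Cdc25a-201 alone gave a value. The order is not stable. Fitting both variables where no exact solution existed gave 2.31 min for Cdk4 and 7.41 min for Ccnd3, sums per gene gave 9.36 min for Ccnd3 and 7303 min for Ccnd2, and reading the second library as total RNA gave 196 min for Ccnd1. Over all 6 ways of computing it, the half-life was 4.05 to 14.1 min for E2f1, 2.31 to 24.0 min for Cdk4, 3.13 to 42.7 min for Ccne1 and at most 105 min for Cdk2.

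**Figure D5:**
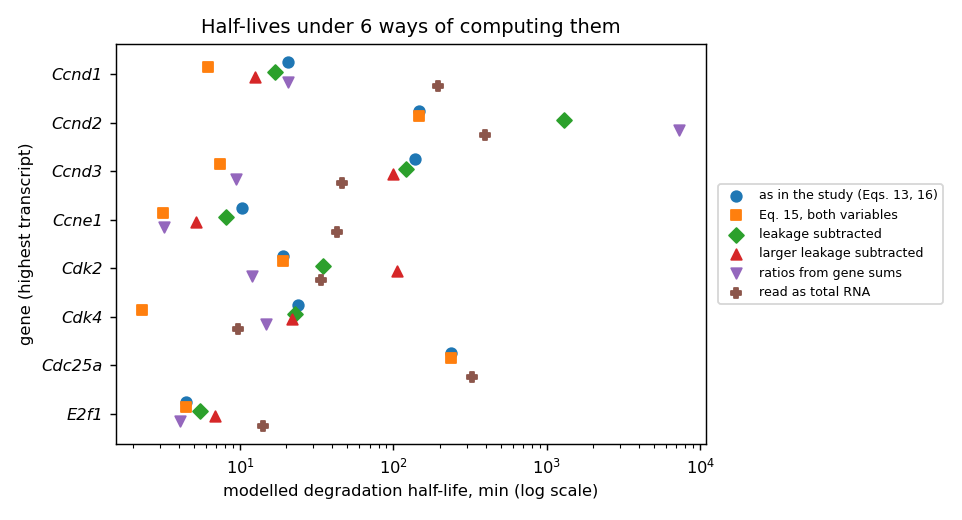
Modelled degradation half-life in min (log axis) of 8 genes, 1 point for each of 6 ways of computing it that gave a value, which some did not for Ccnd2 and Cdc25a. Points are for the highest measured transcript, except those from gene sums. Ccne2 and Cdkn1b are absent because no transcript of theirs had ratios from which the model gives a value. Ccnd2 spans 147 to 7303 min, while E2f1 spans 4.05 to 14.1 min. The 7303 and the 4.05 min are from gene sums, and the highest transcript of Ccnd2 reached 1295 min.

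A wider list of 63 genes of the same passage gave the setting, of which 61 passed the minimum. Its median relative enrichment was 0.883, against 0.655 for the 10 genes. Of the 61, 6 were at least 2-fold above the median gene, where 0 of the 10 genes and 21.9% of all genes were. Another 8 of the 61 in the list were at least 2-fold below it, where 2 of the 10 genes and 14.8% of all genes were. Among its 39 genes with a mean exon value of at least 100, the lowest were Tfdp1, the partner of E2F factors, at 0.307, Cul4b, a ubiquitin ligase scaffold, at 0.360 and Mybl2, a cell cycle transcription factor, at 0.417. The highest were Gmnn, an inhibitor of origin licensing, at 2.11, E2f7, a repressor of E2F targets, at 2.08 and Cks2, a kinase subunit, at 1.56. Within the E2F and DP factors the median over 9 genes was 0.744, under the 1.69 of E2f1.

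Likeness was measured as the distance over 3 log2 measures, the exon ratio and both intron to exon ratios, to 68 candidate genes in these 2 libraries. The nearest gene was Cul4a for Cdk2 (distance 0.249), Cdc6 for Ccnd3 (0.316), Mcm7 for Cdk4 (0.325), Ccnh for Ccne1 (0.393), Ccna2 for Ccnd1 (0.454), E2f2 for Cdc25a (0.543), Dtl for Ccne2 (0.778) and Fbxo31 for Cdkn1b (0.900). Ccnd2 was the most distant from any gene, at 1.55 from Ddb1.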

How the data were processed

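Labeled and unlabeled RNA were measured in 1 library each. The authors set ribosomal RNA reads aside, aligned the rest with STAR and quantified them with RSEM, and deposited exon and intron values per transcript, called TPM. Because each deposited column sums to 10 times a TPM column, the values are treated as a score. The members and gene lists were chosen with earlier results of these data known. Named items were the members, their coding transcripts with at least 1% of the mean exon value of their gene, the 3 highest and 3 lowest genes of the wider list with a mean exon value of at least 100, the nearest gene to each member, of which 1 is not reported here, and the cell type markers. Ccnd3-213 and Ccnd3-220 fall under that 1% and were named after their values were seen. The intron ratio, the Ccnd3 and Cdkn1b intron comparisons, the overlap split at 50%, the E2F motifs and the promoters shown were chosen after values or sequences had been seen. Unlabeled RNA leaking into the labeled pool was subtracted as an alternative, as a share of the unlabeled value set at percentile 1 of labeled over unlabeled exon values. The plan said over all transcripts, which gives a share of 0 when every row is taken. It was first computed over coding transcripts above the minimum (0.0679). After that value and its results were seen it was recomputed over those with all values above 0 (0.142), and both are reported. Rates used the equations of the study and a labeling time of 10 min. The solver was tested on simulated data. Without noise, 99.9 to 100% of cases came within 0.01 natural log units of the true degradation rate by any of their solutions. With noise of 0.1 log units on each value, 0.737 to 1.35% did, and up to 23.0% had no solution. Where there was more than 1 solution, the closest to the true rate was scored. These shares therefore do not cover the choice between solutions. No test was possible. Software was scipy 1.17.1, numpy 2.4.6, matplotlib 3.10.9 and pandas 2.3.3 under Python 3.11.15.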

Additional observations from a re-analysis of the deposited data

How the results depend on the processing

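No paired analysis was possible because there was 1 library per pool and no result came from a test. A share counted as moved outside its Wilson interval, which is wide over 37 transcripts and takes them as independent, and a value or count when it changed by more than 1.5 times, a limit chosen for values without an interval. No value past the 2-fold limit changed direction, but Ccne1, at 0.967 of the median gene, rose above it to 1.07 with a minimum of 10 and to 1.04 by the most highly expressed transcript. The share at a labeled ratio of at least 1 ran from 29.4 to 43.2% and the compatible share from 56.8 to 70.0%, all counted as kept. Of the summary results, 58 kept within these limits and 11 moved. The number of members 2-fold or more below the median (2) became 5 without centring, 1 with a minimum of 10, 4 with all transcripts of a gene summed, 4 after subtraction of leakage and 5 with the larger leakage. The share of all genes below that limit, 14.8%, became 22.7, 11.3, 20.1, 17.8 and 21.4% in the same order. In the wider list that number (8) became 15 without centring and 15 with the larger leakage. The larger leakage share was chosen after the first had been seen. Without centring, 17.4% of all genes were 2-fold above. The median half-life of 17.5 min became 4.46 min with both variables fitted and 42.3 min with the second library read as total RNA, and the median processing half-time of 4.60 min became 1.78 and 1.99 min. Of single-gene values, 149 kept and 25 moved, 22 of the latter half-lives. The relative enrichment of Cdkn1b moved from 0.538 to 0.855 by the most highly expressed transcript. That of Ccnd2 moved from 0.313 to 0.172 with the larger leakage. Taking the smaller of 2 solutions changed nothing, since no member had 2. The cause of these changes was not tested. The limit that depth sets on each value is unknown.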

Other observations

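The coding rows used here hold only part of the exon signal of some of these genes. Of the exon sum over all biotypes, coding rows held 37.2% in labeled and 40.6% in unlabeled RNA for Cdk4, 35.9% and 47.1% for Cdc25a, 51.8% and 49.1% for Ccnd1, 50.0% and 56.7% for Ccne1, 41.5% and 51.2% for Ccne2, 60.1% and 84.3% for Ccnd2 and 92.7% and 98.9% for Ccnd3. They held 100% for Cdk2, Cdkn1b and E2f1, which have coding rows alone.

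The overlap seen in Cdkn1b was looked for in all transcripts, after it had been seen there. Of 196 coding transcripts with at least 50% of their intron bases in exons of other coding transcripts of their gene, untranslated parts included, 21.9% had an unlabeled ratio of 1 or more, against 8.50% of the other 31190. With exons of all transcripts of the gene in place of coding ones, the shares were 12.5% of 1146 and 8.44% of the other 30240. In that split the labeled ratio went the other way, with 21.4% against 28.5% at 1 or more and medians of 0.311 and 0.578. Uridine made up 16.6 to 31.6% of the bases of the spliced transcripts of the 10 genes, highest in Ccne2 and lowest in Ccnd3-213, where the median of all transcripts was 23.7%. The part of uridine content in the labeled values was not tested.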
